A study of Mus musculus with 6 samples.

Results

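Semaphorins, plexins and neuropilins form a guidance system of ligands and receptors, and their transcripts were compared between the epithelium and the mesenchyme of the embryonic mouse bladder neck and urethra. The members were every gene whose array probe sets name that gene alone and whose symbol is a semaphorin of classes 3 to 7, a plexin of subfamilies A to D or a neuropilin. This gave 31 genes of 18193 on the array, namely 20 semaphorins, 9 plexins and 2 neuropilins, covered by 78 probe sets. Each gene was read from its brightest probe set, and 30 of the 31 lay above the filter on low signals, the exception being Sema6b. The tissue came from wild-type FVB/N embryos at embryonic day 13 (Theiler stage 21), with no transgene and no treatment other than the trypsin used to part the layers (1 mg/ml for 20 minutes). Per the labels, samples were not pooled and sex was not recorded. Epithelium was hybridised to 3 arrays, titled urothelium 1, 2 and 5, and mesenchyme to 3 arrays, titled mesenchyme 1, 2 and 3, after amplification of the RNA in 2 rounds. The labels do not name the embryo behind each array, so p-values measure only the spread between these samples, which may be technical.

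Semaphorins are secreted or membrane-bound proteins that steer growing axons, blood vessels and migrating cells, mostly by repulsion. Plexins are the receptors that carry the signal into the cell, where their GTPase-activating domain acts on small GTPases of the Ras and Rap kind. The secreted class 3 semaphorins mostly bind a neuropilin, which in turn recruits a plexin, with Sema3e as the known exception that binds Plxnd1 directly, while membrane-bound classes bind plexins without a neuropilin. Neuropilins also bind vascular endothelial growth factors, and in developing organs class 3 semaphorins are known for patterning the nerves and vessels that run in the mesenchyme around an epithelium.

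Values below are normalized signal units: the deposited signal plus 16 was put on the log2 scale, quantile normalized across arrays, and turned back with the 16 removed. Differences are log2 epithelium minus mesenchyme with the standard error from limma, so that a positive value is higher in epithelium, and adjusted p is Benjamini-Hochberg over all tested genes with a threshold of 0.05. A signal belongs to its probe set, so levels of different genes are not set against each other. Mesenchyme 1 stood apart: across the tested genes, which are not independent replicates, it correlated with mesenchyme 2 and 3 at r = 0.784 and 0.755, where those correlated at 0.981 with each other. Epithelial markers summed to 198762 to 238975 on the epithelial arrays and to 86848, 14659 and 2698 on mesenchyme 1, 2 and 3. Of the 8 epithelial markers, 1 passed as higher in epithelium with 6 arrays and 8 without mesenchyme 1. Of the 8 mesenchymal markers, 4 and 7 passed as higher in mesenchyme. Markers of liver, heart, pancreas, lung and epidermis summed to 199915 on mesenchyme 1 and to 314 to 841 on the other 5 arrays, and the caudal genes Hoxd13 and Isl1 to 1481 there and 54740 to 63554 elsewhere. The members' calls are therefore given with all 6 arrays and without mesenchyme 1, and single values are from all 6 arrays unless stated.

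With all 6 arrays, 3 members were higher in epithelium, all of them class 3 semaphorins (Sema3c, Sema3d and Sema3e), and 7 were higher in mesenchyme (Nrp2, Plxnc1, Sema3g, Sema4f, Sema5a, Sema6d and Sema7a). Without mesenchyme 1 these 10 passed again in the same direction, and 4 more did: the receptor Plxnb1 on the epithelial side and Nrp1, Plxnd1 and Sema5b on the mesenchymal side. Sema3g and Sema5b had epithelial readings mostly under the filter on low signals and entered the test through mesenchymal arrays, so their calls carry less than the others. Of all tested genes, 1.95% were higher in epithelium and 4.03% in mesenchyme with 6 arrays (5.98% in all), and 6.37% and 8.17% without mesenchyme 1 (14.5% in all). The median difference of the 30 tested members was -0.10 against 0.12 over all 13717 genes, and -0.38 against 0.02 without mesenchyme 1. That median of all genes depended on the scaling (0.06 on deposited values, 0.23 with median centring) and is not subtracted here. The calls rested on few arrays: of the 10, only Sema3e passed without epithelium 1, 5 without epithelium 2 (Plxnc1, Sema3c, Sema3e, Sema3g and Sema6d), 4 without epithelium 5 (Nrp2, Plxnc1, Sema3c and Sema3e), 2 without mesenchyme 2 (Sema3d and Sema3e) and 2 without mesenchyme 3 (Plxnc1 and Sema3e). In tissue pieces such as these, fewer cells of a type and less RNA per cell cannot be told apart.

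**Figure D1:**
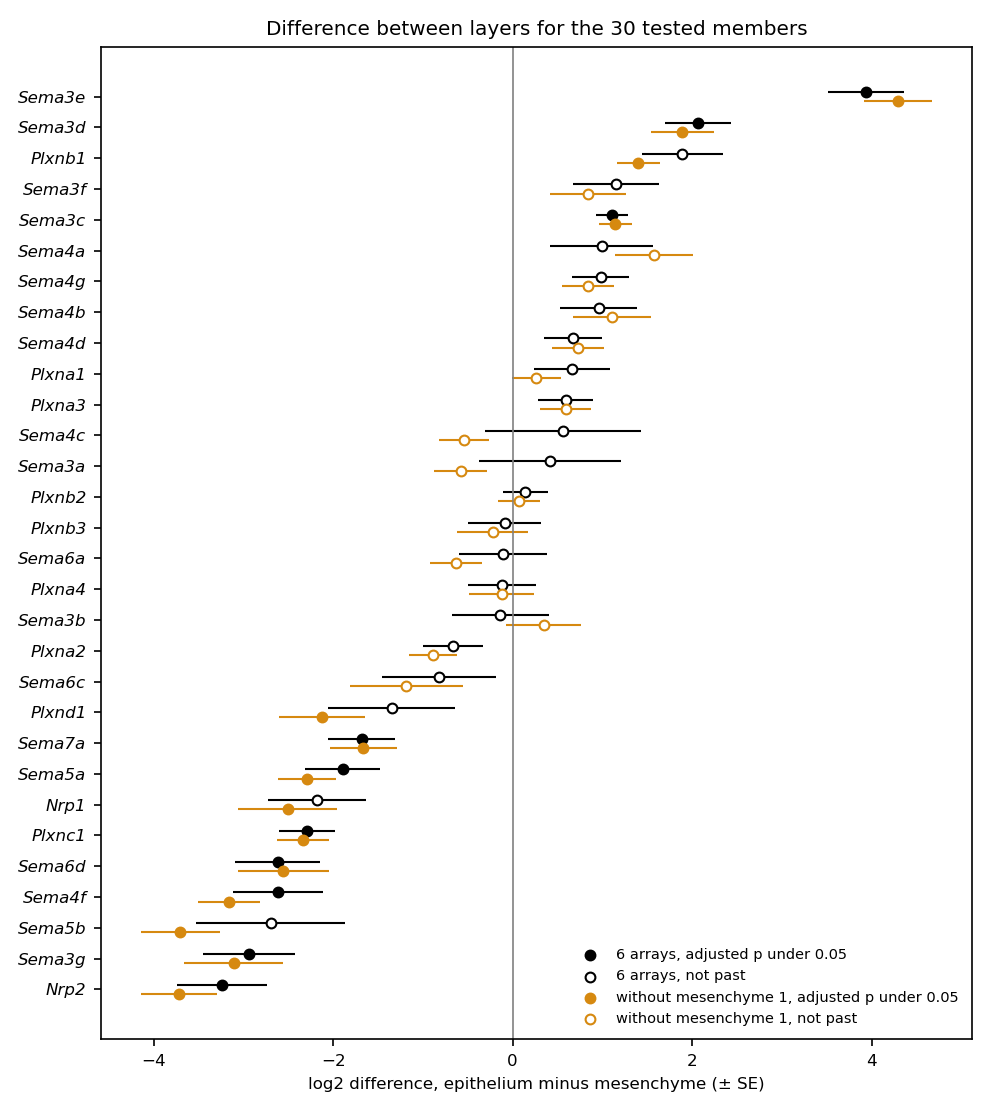
Log2 difference between epithelium and mesenchyme (horizontal axis, ± SE from limma) for the 30 tested members, with all 6 arrays in black and without mesenchyme 1 in orange; filled points have adjusted p under 0.05. Sema3e lies farthest to the epithelial side (3.94) and Nrp2 farthest to the mesenchymal side (-3.23) with 6 arrays, and Sema3a, Sema3b and Sema4c change sign without mesenchyme 1.

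The secreted class 3 semaphorins divided between the layers, with 3 of 7 higher in epithelium and 1 higher in mesenchyme in both fits. Sema3e, the ligand that binds Plxnd1 and is known for repelling vessels, read 12521, 11504 and 10493 on epithelium 1, 2 and 5 and 1097, 924 and 387 on mesenchyme 1, 2 and 3. The lowest epithelial array thus lay far above the highest mesenchymal one, and the difference of 3.94 ± 0.420 SE (15.3-fold, adjusted p = 0.00477) was 4.29 (19.6-fold, adjusted p = 0.0011) without mesenchyme 1. All 4 probe sets of Sema3e lay on the same side, at 3.77 to 5.16. The mesenchymal readings of Sema3e descended in the same array order as the summed epithelial markers given above, whose part in these readings was not tested.

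Sema3d, a ligand of neuropilin receptors known from heart and vessel development, read 9079, 10211 and 5752 on the epithelial arrays and 1473, 2862 and 1699 on the mesenchymal ones. The layers did not overlap, at a difference of 2.06 ± 0.366 (4.18-fold, adjusted p = 0.0216), and without mesenchyme 1 at 1.89 (adjusted p = 0.0116). The call ended with median centring (2.17, adjusted p = 0.0713). Sema3c, which acts through both neuropilins and Plxnd1 and is known for its part in the cardiac outflow tract, read 29338, 34563 and 24909 on epithelium and 14660, 12356 and 14009 on mesenchyme. Its signal was clear in both layers, and the difference was the smallest among members past the threshold with 6 arrays, at 1.10 ± 0.181 (2.15-fold, adjusted p = 0.0162) and 1.15 (adjusted p = 0.00612) without mesenchyme 1. It was not past the threshold without a variance trend (adjusted p = 0.0655), and its other probe set gave 1.89.

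Sema3g, a ligand of Nrp2 known from endothelium, ran the other way. It read 24.0, 61.0 and 18.1 on epithelium 1, 2 and 5 and 272, 375 and 404 on mesenchyme 1, 2 and 3. The filter on low signals stood at 96.3, so the epithelial readings were all under it and the gene entered the test through the mesenchymal arrays. A gene that enters in this way had to differ, and the difference of -2.94 ± 0.516 (adjusted p = 0.0206; -3.11, adjusted p = 0.01, without mesenchyme 1) is given as a description, with no fold.

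The other 3 class 3 genes did not pass in either fit. Sema3a, the prototype repellent of sensory and sympathetic axons, read 5381, 4664 and 8490 on epithelium and 1113, 8083 and 9879 on mesenchyme. Mesenchyme 1 was the lowest of all arrays (log2 -2.99 relative to the mean of mesenchyme 2 and 3), and the difference turned from 0.42 (95% interval -1.45 to 2.29) to -0.58 (-1.28 to 0.12) without it. Sema3f, the Nrp2 ligand, had 1.15 ± 0.477 (adjusted p = 0.244; 0.84 without mesenchyme 1), with 2398 and 3165 on epithelium 5 and 1 but 1243 on epithelium 2, inside the mesenchymal range of 588 to 1362. Sema3b read 184 to 575 on all arrays, with mesenchyme 1 the highest, at a difference of -0.14 that became 0.34 without mesenchyme 1. The probe sets of Sema3b and Sema3f can both match several transcripts but are of different kinds, that of Sema3f being of the cross-matching kind.

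**Figure D2:**
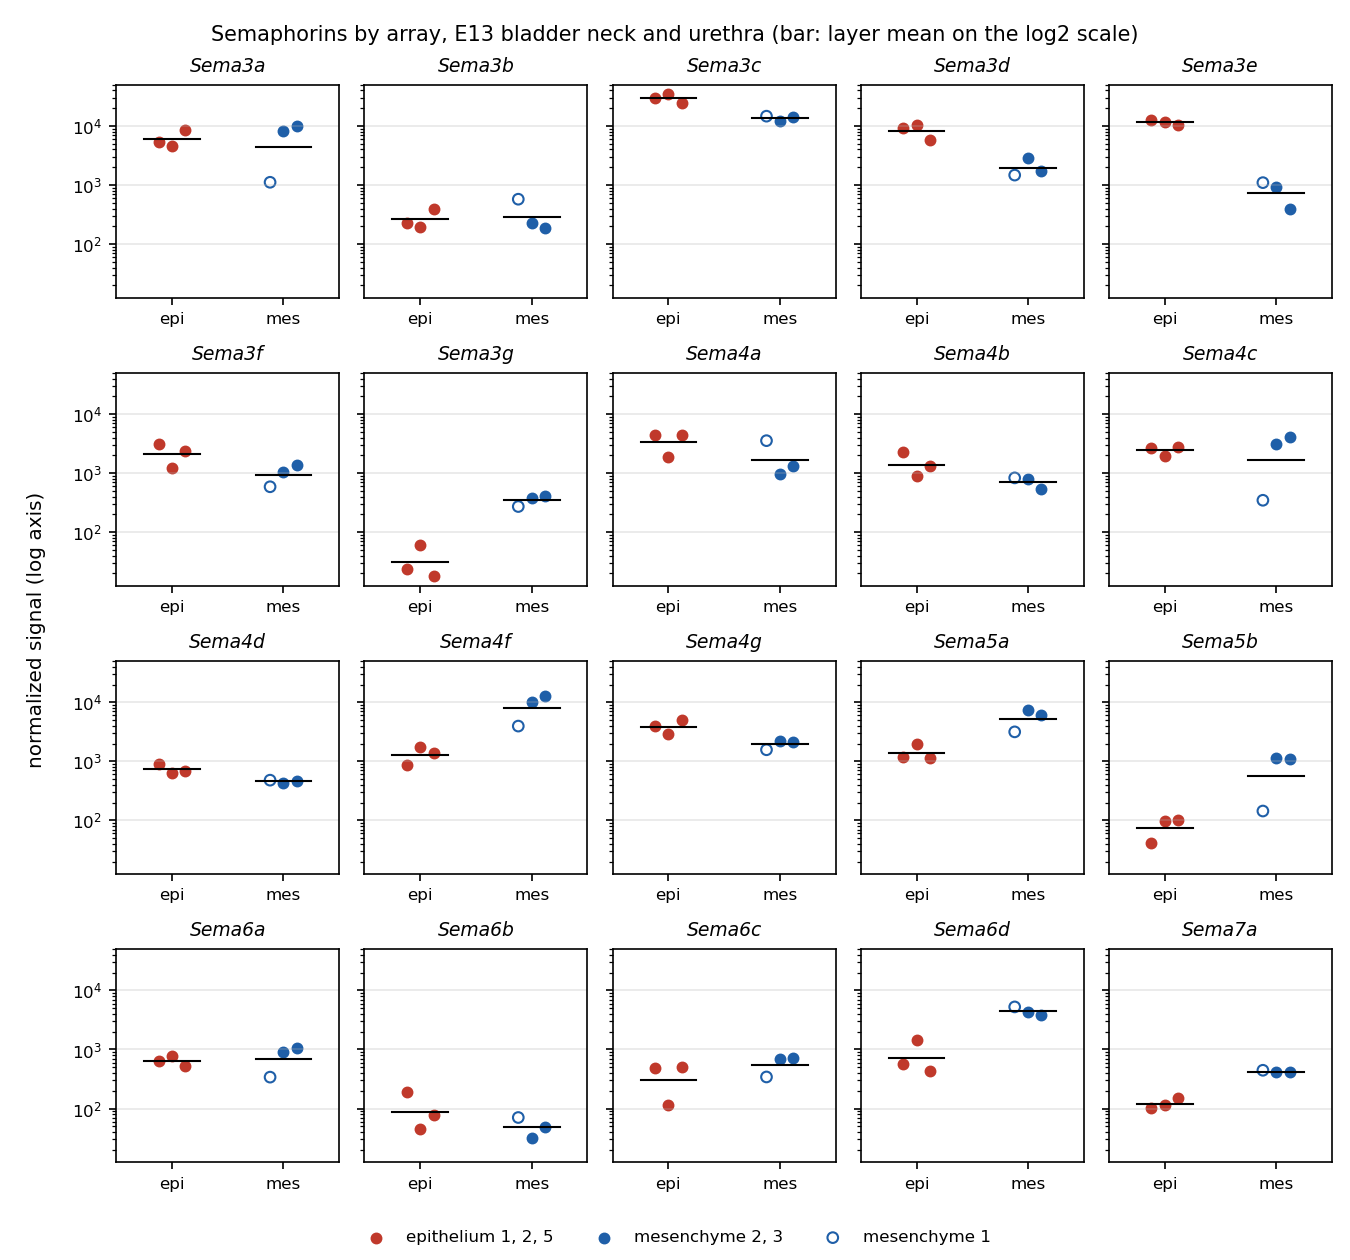
Normalized signal on a log axis for the 20 semaphorins, with epithelium 1, 2 and 5 in red from left to right, mesenchyme 2 and 3 as filled and mesenchyme 1 as open blue points, and the layer mean on the log2 scale as a bar. Sema3e separates the layers widely (10493 to 12521 against 387 to 1097), and mesenchyme 1 lies far from mesenchyme 2 and 3 for Sema3a, Sema4c and Sema5b.

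The 4 class 3 genes Sema3d, Sema3a, Sema3e and Sema3c follow each other on mouse chromosome 5, with 0, 3 and 15 other protein-coding genes between neighbours in that order in the RefSeq annotation (GRCm38.p6). The 3 members higher in epithelium are thus linked to one another and to Sema3a, which did not pass. The stretch of 250 bases before the RefSeq start is shown for these 3 genes, and for Nrp2 as the receptor with the largest difference, because they stand at both ends of the ligand and receptor comparison. Sequences are from RefSeq, GRCm38.p6, plus strand, at chr5:17574566-17574815 for Sema3c, chr5:12382916-12383165 for Sema3d, chr5:14025026-14025275 for Sema3e and chr1:62703067-62703316 for Nrp2. Capitals mark matches on either strand to GGGCGG (the GC box of Sp factors) or CAGGTG (an E-box of the kind bound by Snail and Zeb repressors).
Sema3c: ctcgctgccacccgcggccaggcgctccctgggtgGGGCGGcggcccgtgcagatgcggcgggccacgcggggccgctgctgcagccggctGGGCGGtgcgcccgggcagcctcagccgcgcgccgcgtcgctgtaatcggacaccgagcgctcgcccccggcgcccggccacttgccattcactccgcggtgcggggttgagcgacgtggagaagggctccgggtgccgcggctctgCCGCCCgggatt
Sema3d: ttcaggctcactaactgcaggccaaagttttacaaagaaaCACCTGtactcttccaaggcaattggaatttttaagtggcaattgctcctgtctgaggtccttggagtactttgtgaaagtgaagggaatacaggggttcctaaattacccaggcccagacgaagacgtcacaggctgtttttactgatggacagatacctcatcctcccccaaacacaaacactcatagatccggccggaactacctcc
Sema3e: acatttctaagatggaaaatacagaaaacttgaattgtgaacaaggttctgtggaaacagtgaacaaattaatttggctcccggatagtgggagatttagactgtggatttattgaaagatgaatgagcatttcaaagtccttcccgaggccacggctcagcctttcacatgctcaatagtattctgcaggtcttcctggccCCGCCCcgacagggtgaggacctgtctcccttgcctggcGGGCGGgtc
Nrp2: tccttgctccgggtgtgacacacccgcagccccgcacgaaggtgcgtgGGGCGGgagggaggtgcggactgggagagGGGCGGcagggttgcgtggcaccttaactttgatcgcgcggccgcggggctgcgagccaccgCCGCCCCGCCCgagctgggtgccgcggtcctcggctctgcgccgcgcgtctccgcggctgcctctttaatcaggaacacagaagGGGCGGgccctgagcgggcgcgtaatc

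The GC box letters occurred 3 times before Sema3c, 2 times before Sema3e and 5 times before Nrp2, some of the last overlapping, and 0 times before Sema3d. They are in 32.7% of all 32851 RefSeq promoters over the same length and in 20 of the 26 members that the table holds. The E-box letters occurred once before Sema3d, in 3 of the 26 members and in 17.2% of all promoters. The TATA box letters TATAAA (12.4% of promoters) and the grainyhead letters AACCGGTT (0.12%) were found in 0 of the 26. The upstream stretches of Sema3c and Nrp2 were rich in G and C (78.4% and 72.4%, with 39 and 32 CpG), whereas Sema3d (46.8%, 4 CpG) and Sema3e (48.0%, 7 CpG) lay below the median of all promoters for GC (52.4%) and around it for CpG (6). The median of the 26 members was 64.6% for GC and 15.5 for CpG. The 3 epithelial ligands thus differed in base composition, and a match of letters here is a description, not a binding site.

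Both neuropilins, the co-receptors of class 3 ligands, were brighter on every mesenchymal than on every epithelial array. Nrp2, which binds Sema3c, Sema3f and Sema3g and also vascular growth factors, read 463, 422 and 1041 on epithelium and 3209, 7617 and 7489 on mesenchyme. The difference was -3.23 ± 0.502 (9.41-fold, adjusted p = 0.0139) and -3.72 (13.2-fold, adjusted p = 0.00201) without mesenchyme 1, and the 3 probe sets above the filter gave -2.88 to -3.23. Nrp1, the Sema3a receptor that also binds Vegfa, read 4706, 1381 and 4931 on epithelium and 9227, 17007 and 19184 on mesenchyme. It missed the threshold with 6 arrays (-2.18 ± 0.544, adjusted p = 0.0661) and passed without mesenchyme 1 (-2.51 ± 0.550, 5.68-fold, adjusted p = 0.0237). It also passed with 6 arrays when its 4 probe sets were averaged (-2.06, adjusted p = 0.0101), and each of the 4 lay on the mesenchymal side.

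Endothelial and neuronal markers were also higher on the mesenchymal arrays. Of 7 tested endothelial markers, 4 were higher in mesenchyme (5 without mesenchyme 1) and 0 in epithelium, and the list of 8 summed to 948 to 2512 on epithelium and 16433 to 21670 on mesenchyme. Of 7 tested neuronal markers, 6 were higher in mesenchyme in both fits, with sums of 621 to 1292 against 26926 to 38696. Some of these markers, such as Prph (13.4 to 19.2 on epithelium) and Gap43 (34.8 to 91.0), were under the filter cut on all epithelial arrays and entered the test through mesenchyme, so these counts are a description. Within mesenchyme, the brightest probe sets of both neuropilins were lowest on mesenchyme 1, where the endothelial sum was highest (21670) and the neuronal sum lowest (26926). This order depended on the probe set. Another Nrp2 probe set read 3788, 2353 and 3044 on mesenchyme 1, 2 and 3, and another Nrp1 probe set 1050, 245 and 63.6. The remaining neuropilin probe sets above the filter were lowest on mesenchyme 1. Glial markers were mixed. Of 5 glial genes, 2 passed on the mesenchymal side, among them Fabp7, while the defining Sox10 read 134 to 257 in both layers. Erbb3 lay on the epithelial side (16817 to 24263 against 6444 to 11721, adjusted p = 0.0513, and 0.0118 without mesenchyme 1). All 8 macrophage genes had differences on the mesenchymal side in both fits, but 0 passed (2 without mesenchyme 1). No marker of these 4 lists read exactly zero, and the part of these cell types in the readings of the neuropilins and of the mesenchymal members below was not tested.

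Among the 9 plexins, the receptor that passed with 6 arrays was Plxnc1, the receptor of Sema7a. It read 447, 449 and 675 on epithelium and 2664, 2545 and 2520 on mesenchyme, with the 3 mesenchymal arrays almost level. The difference was -2.29 ± 0.311 (4.89-fold, adjusted p = 0.00949) and -2.33 (adjusted p = 0.00272) without mesenchyme 1. The second probe set above the filter gave -1.68, while the 4 below the filter lay between -0.13 and 0.25.

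Plxnd1, the endothelial receptor of Sema3e, read 276, 191 and 603 on epithelium and 301, 1438 and 1329 on mesenchyme. Mesenchyme 1 lay within the epithelial range (log2 -2.14 relative to the mean of mesenchyme 2 and 3). The gene did not pass with 6 arrays (-1.35 ± 0.703, adjusted p = 0.35) and passed without mesenchyme 1 (-2.13 ± 0.480, 4.37-fold, adjusted p = 0.0266). The summed endothelial markers were 21670 on mesenchyme 1 and 16433 and 18417 on mesenchyme 2 and 3, although single markers such as Emcn (472, 1603 and 1461) were lower on mesenchyme 1.

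Plxnb1, the receptor of Sema4d that can associate with Met and Erbb2, passed on the epithelial side without mesenchyme 1. It read 11711, 7995 and 11056 on epithelium and 1356, 3612 and 4078 on mesenchyme, without overlap. The difference of 1.89 ± 0.447 missed the threshold with 6 arrays (adjusted p = 0.0558), and the call of 1.40 ± 0.240 without mesenchyme 1 (2.64-fold, adjusted p = 0.00894) was smaller but with less spread. Among the alternatives with 6 arrays it passed only without normalization (1.86, adjusted p = 0.0446). It did not pass with median centring (2.03, adjusted p = 0.0941) or when its probe sets were averaged (1.72, adjusted p = 0.0987). The second probe set gave 1.56.

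The remaining 6 plexins did not pass in either fit. Plxnb2, a receptor of Sema4c and Sema4g, was nearly level, with 3836 to 5188 on epithelium and 3674 to 4301 on mesenchyme and a difference of 0.14 whose 95% interval ran from -0.45 to 0.73. Plxna2 had -0.67 (interval -1.44 to 0.11; -0.89 without mesenchyme 1, where the layers did not overlap), Plxna1 0.66 (-0.34 to 1.65; 0.26) and Plxna3 0.59 (-0.13 to 1.31; 0.59), the last with all epithelial arrays (1330 to 1903) above all mesenchymal ones (912 to 1188). Plxna4 (172 to 215) and Plxnb3 (238 to 471) gave low readings on all arrays, and Plxnb3 was read from a probe set that can match several transcripts. A second probe set of Plxna4, which is below the filter and was not tested, lay on the mesenchymal side at -3.67.

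**Figure D3:**
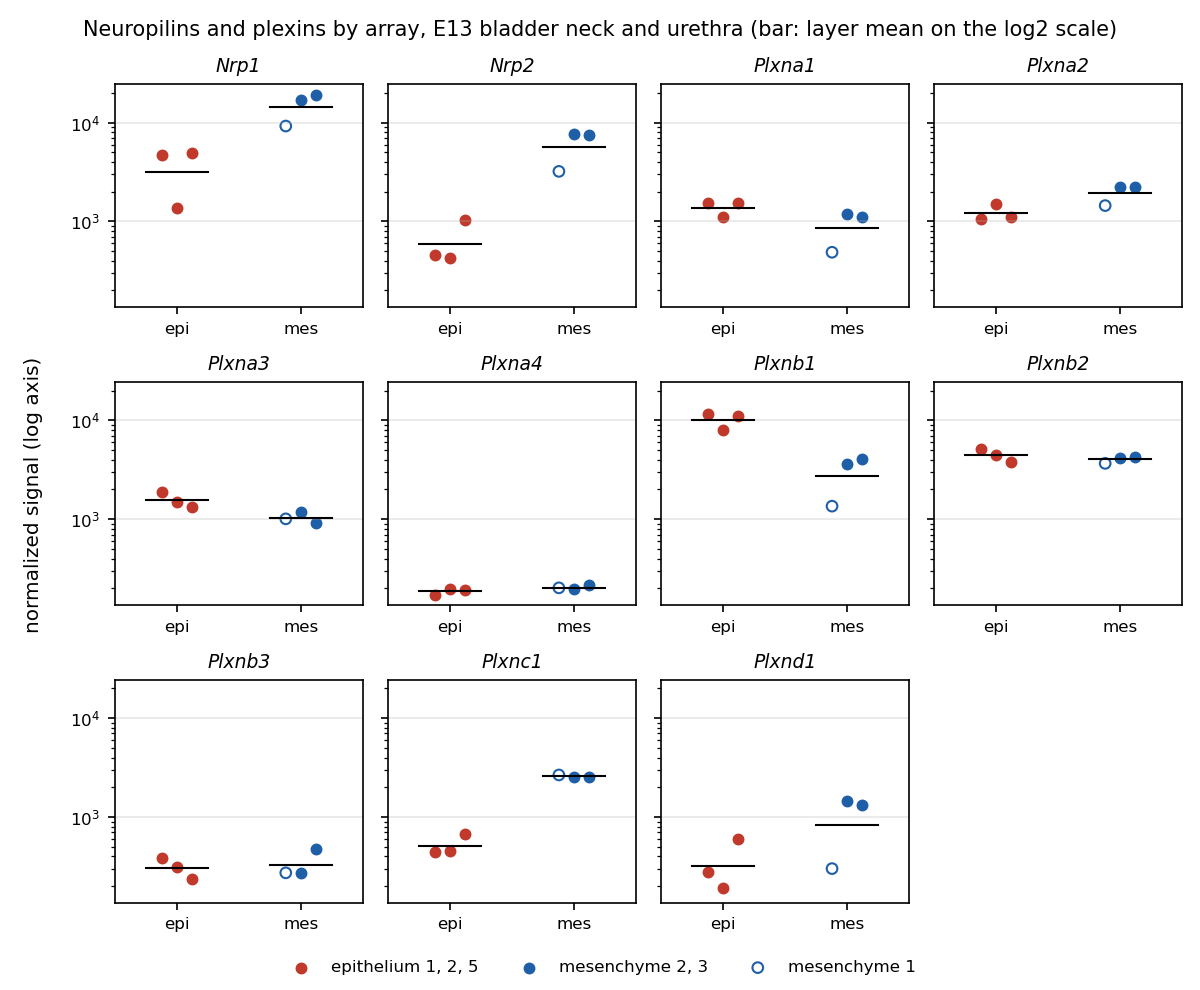
Normalized signal on a log axis for the 2 neuropilins and 9 plexins, with epithelium 1, 2 and 5 in red from left to right, mesenchyme 2 and 3 as filled and mesenchyme 1 as open blue points, and the layer mean on the log2 scale as a bar. Nrp2 and Plxnc1 separate the layers toward mesenchyme and Plxnb1 toward epithelium, while for Plxnd1 mesenchyme 1 (301) lies among the epithelial arrays.

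Of the 6 class 4 semaphorins, which are membrane-bound ligands of B-type plexins, 1 passed. Sema4f, known from neurons and Schwann cell precursors, read 878, 1779 and 1361 on epithelium and 3952, 10189 and 12647 on mesenchyme. The difference was -2.62 ± 0.501 (6.14-fold, adjusted p = 0.0271) and -3.16 (8.96-fold, adjusted p = 0.0018) without mesenchyme 1. Its probe set is of a kind that can match several transcripts, and the call ended on the probe set of the unique kind (-1.66, adjusted p = 0.128), with the mean of both (-2.14, adjusted p = 0.0524) and with median centring (-2.48, adjusted p = 0.079).

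The other class 4 ligands did not pass. For Sema4b, Sema4d and Sema4g the epithelial arrays all lay above the mesenchymal ones, at differences of 0.96, 0.67 and 0.98 (1.11, 0.73 and 0.84 without mesenchyme 1), with adjusted p of 0.276, 0.308 and 0.141. Sema4d, the classical Plxnb1 ligand, read 908, 647 and 694 on epithelium and 480, 432 and 468 on mesenchyme. Over all tested genes, 15.5% had their epithelial arrays above the mesenchymal ones and 13.2% the reverse, against 8 and 9 of the 30 tested members. Sema4a read 4394, 1891 and 4415 on epithelium and 3553, 958 and 1342 on mesenchyme, so that mesenchyme 1 overlapped the epithelium, again on a probe set of the cross-matching kind. Its difference was 0.99 (adjusted p = 0.396), and 1.57 (adjusted p = 0.0557) without mesenchyme 1. Sema4c, the Plxnb2 ligand, read 1944 to 2786 on epithelium, 3086 and 4058 on mesenchyme 2 and 3 and 347 on mesenchyme 1, and its difference turned from 0.56 to -0.54 (interval -1.20 to 0.12) without that array.

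Both class 5 semaphorins, membrane-bound proteins with thrombospondin repeats, lay on the mesenchymal side. Sema5a, a ligand of Plxnb3, read 1190, 1998 and 1158 on epithelium and 3155, 7481 and 6118 on mesenchyme. Its difference of -1.89 ± 0.418 (3.71-fold, adjusted p = 0.0436) was close to the threshold and became -2.29 (4.90-fold, adjusted p = 0.00409) without mesenchyme 1. The 6-array call ended with median centring (adjusted p = 0.175), when its probe sets were averaged (-2.05, adjusted p = 0.0688), without a variance trend (0.0577) and without the filter (0.0513). Sema5b, which acts on neurites through Plxna1 and Plxna3, read 40.8, 96.3 and 102 on epithelium, 144 on mesenchyme 1 and 1140 and 1088 on mesenchyme 2 and 3. It missed the threshold with 6 arrays (-2.70 ± 0.827, adjusted p = 0.121) and passed without mesenchyme 1 (-3.70 ± 0.442, adjusted p = 0.00229). Like Sema3g it entered the test through mesenchymal arrays, since 2 of its 3 epithelial readings were at or under the filter cut of 96.3, and no fold is given. Its second probe set gave a difference of 0.42 with 6 arrays and -0.19 without mesenchyme 1.

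Of the class 6 semaphorins, transmembrane ligands of A-type plexins, Sema6d passed. Known from heart development through Plxna1, it read 571, 1429 and 430 on epithelium and 5259, 4267 and 3852 on mesenchyme. Mesenchyme 1 sat with the other mesenchymal arrays, and the difference was -2.62 ± 0.473 (6.13-fold, adjusted p = 0.0228) and -2.56 (adjusted p = 0.0156) without it. The probe sets disagreed: the other 2 above the filter gave -0.13 and 0.87, and the mean of all 3 did not pass (-0.63, adjusted p = 0.368). Sema6a read 530 to 774 on epithelium and 340 to 1079 on mesenchyme, with a difference of -0.11 that was -0.63 without mesenchyme 1 and 0.66 with the mean of its probe sets. Sema6c, read from a probe set of the same kind as that of Sema3b, had -0.82 (adjusted p = 0.523, and -1.18 without mesenchyme 1). Sema6b, below the filter and not tested, read 32.0 to 188 over all arrays.

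Sema7a, the membrane-anchored semaphorin that binds Plxnc1 and integrins, read 103, 113 and 149 on epithelium and 444, 408 and 414 on mesenchyme. The layers did not overlap, at -1.68 ± 0.376 (3.21-fold, adjusted p = 0.0458) and -1.66 (adjusted p = 0.026) without mesenchyme 1. The 6-array call was narrow and ended without normalization (adjusted p = 0.0518), with median centring (0.0548) and without the filter (0.0797), and its second probe set, below the filter, gave -0.10.

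Ligands were then set beside the receptors they are known to bind, in 28 pairs of 17 semaphorins with the 11 receptors. With 6 arrays, Sema3c with Nrp2 was the pair whose ligand was higher in epithelium and whose receptor was higher in mesenchyme, and 0 pairs had the reverse arrangement. Without mesenchyme 1 there were 5 pairs of the first kind and 0 of the reverse. The 5 pairs were Sema3c with Nrp1, Nrp2 and Plxnd1, Sema3d with Nrp1, and Sema3e with Plxnd1, so that all rest on the 3 epithelial ligands and 3 receptors. The reverse arrangement had little room. With 6 arrays 0 receptors were called higher in epithelium, and without mesenchyme 1 Plxnb1 alone was. Sema7a and Plxnc1 were both higher in mesenchyme in both fits (-1.68 and -2.29). Sema3g and Nrp2 (-2.94 and -3.23) were called the same way, with the limit given above on the epithelial readings of Sema3g. Plxnb1 and its ligands Sema4a and Sema4d all lay on the epithelial side (1.89, 0.99 and 0.67 with 6 arrays; 1.40, 1.57 and 0.73 without mesenchyme 1), but among these Plxnb1 passed only without mesenchyme 1 and the ligands in neither fit. By sign alone, some pairs had the reverse arrangement. Sema5b and Sema6d lay on the mesenchymal side (-2.70 and -2.62 with 6 arrays, -3.70 and -2.56 without mesenchyme 1). Their receptor Plxna1 (0.66 and 0.26) and the other Sema5b receptor Plxna3 (0.59 in both fits) lay on the epithelial side but did not pass. Pairs share members and were chosen with earlier results of these data known, so these counts are a description.

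**Figure D4:**
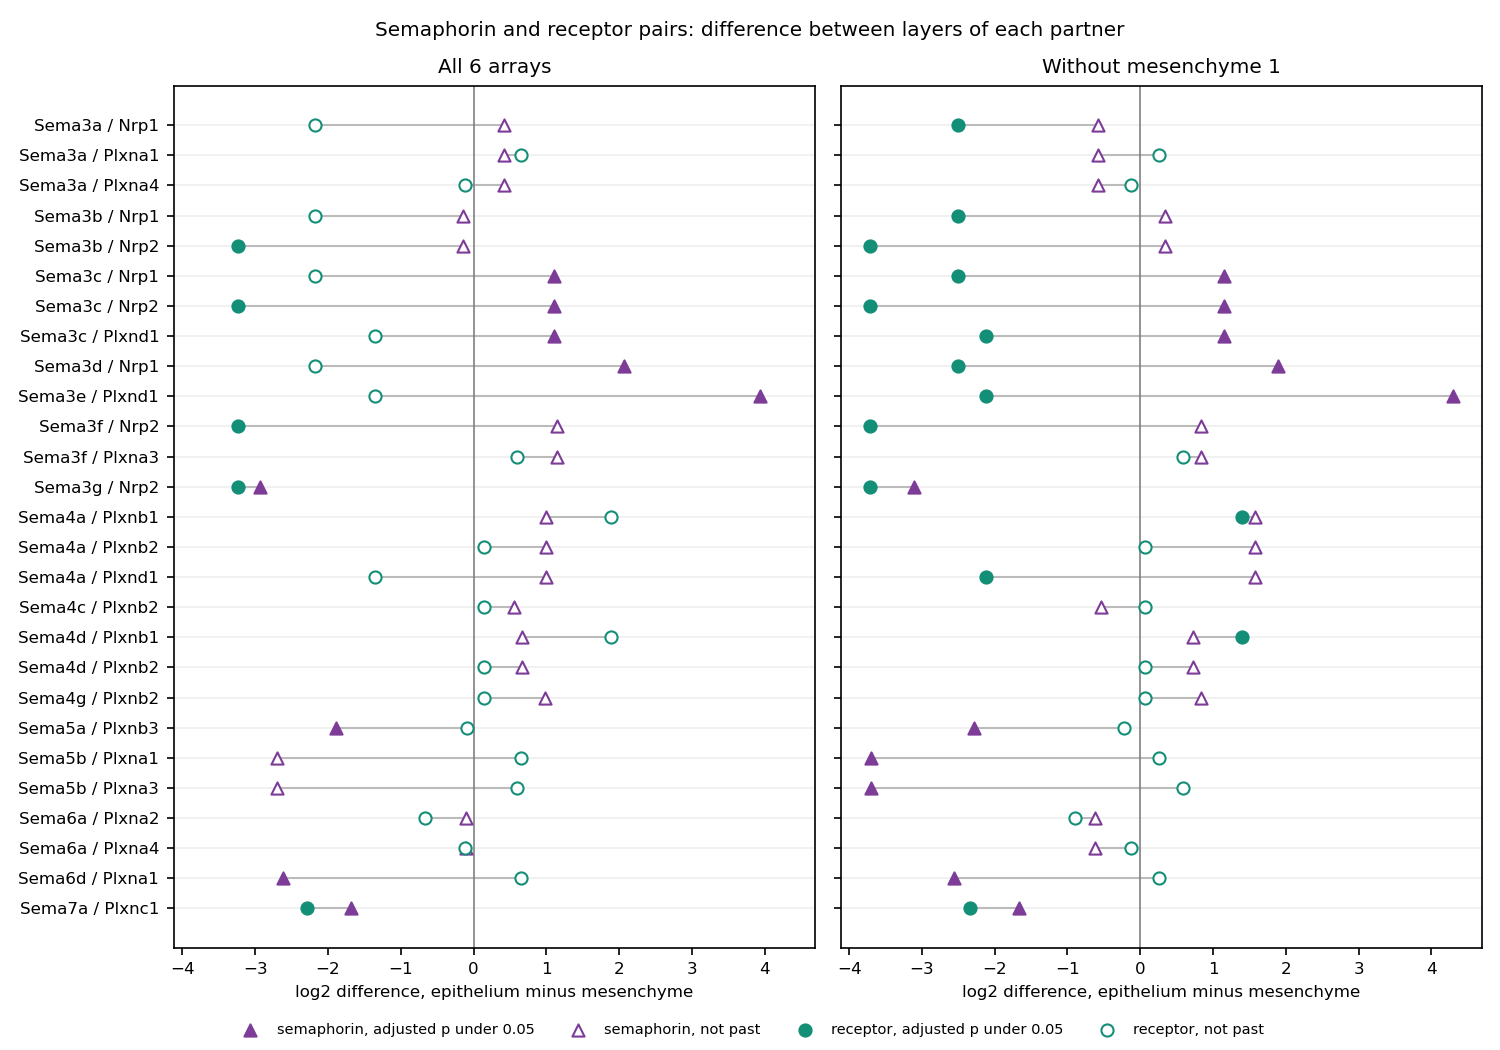
Log2 difference between epithelium and mesenchyme for the semaphorin (triangle) and the receptor (circle) of the 27 pairs with both genes tested, with all 6 arrays on the left and without mesenchyme 1 on the right; filled symbols have adjusted p under 0.05. The pairs of Sema3c, Sema3d and Sema3e with Nrp1, Nrp2 and Plxnd1 span zero, with the ligand on the epithelial and the receptor on the mesenchymal side. Those of Sema5b with Plxna1 and Plxna3 and of Sema6d with Plxna1 span zero the other way, with receptors not past the threshold.

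Of 40 listed partners of the pathway, such as co-receptors, GTPase regulators and collapsin response mediators, 37 had a probe set naming them alone and 36 were tested. With 6 arrays 5 were higher in mesenchyme and 0 in epithelium, with a median difference of -0.29, and without mesenchyme 1 there were 9 and 2 (median -0.40). The shares over all tested genes were 4.03% and 1.95% with 6 arrays, and 8.17% and 6.37% without mesenchyme 1. Kdr, the vascular growth factor receptor that pairs with neuropilins, differed by -4.03 ± 0.753 (adjusted p = 0.0252), and Flt4, its relative of lymphatic endothelium that works with Nrp2, by -3.15 (adjusted p = 0.0329). Crmp1, a collapsin response mediator downstream of Sema3a, read 220, 347 and 409 on epithelium and 3602, 2826 and 2495 on mesenchyme (-3.16 ± 0.358, adjusted p = 0.00579). Itga1, the alpha subunit of an integrin bound by Sema7a, differed by -2.24 (adjusted p = 0.0136), and the fifth gene, named after its value was seen, was the mediator Dpysl3 (-1.65, adjusted p = 0.00498). All 5 passed again without mesenchyme 1, at -4.04 for Kdr, -3.20 for Flt4, -3.10 for Crmp1, -2.40 for Itga1 and -1.65 for Dpysl3. Kdr and Flt4 were dim in epithelium, at 36.2 to 453 and 37.0 to 288, and Kdr was also counted among the endothelial markers above. The plexin-B partners Met and Erbb2 did not pass with 6 arrays. Met read 5544, 9196 and 5693 on epithelium, 7016 on mesenchyme 1 and 1394 and 1559 on mesenchyme 2 and 3, and passed without mesenchyme 1 (2.19, adjusted p = 0.00355), as did the adhesion molecule Chl1 (1.45, adjusted p = 0.0113), named after its value was seen. Erbb2 had 1.36 (adjusted p = 0.244).

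Mesenchyme 1 differed from mesenchyme 2 and 3 in many members. Of the 31, 11 lay over 1 log2 unit below the mean of mesenchyme 2 and 3 on that array, 2 lay over 1 above it, and 18 lay within 1 of it. The same count over all genes was not made, so these counts are not read as a trait of the members. Sema4c (-3.29), Sema3a (-2.99), Sema5b (-2.82) and Plxnd1 (-2.14) were the lowest, and Sema4a (1.63) and Sema3b (1.43) the highest. Plxnb1, which was higher in epithelium without that array, was at -1.49 on mesenchyme 1 relative to mesenchyme 2 and 3, that is, farther from the epithelium. Plxnc1 (0.07), Sema7a (0.11), Sema3c (0.16) and Sema6d (0.37) were among those close to mesenchyme 2 and 3.

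**Figure D5:**
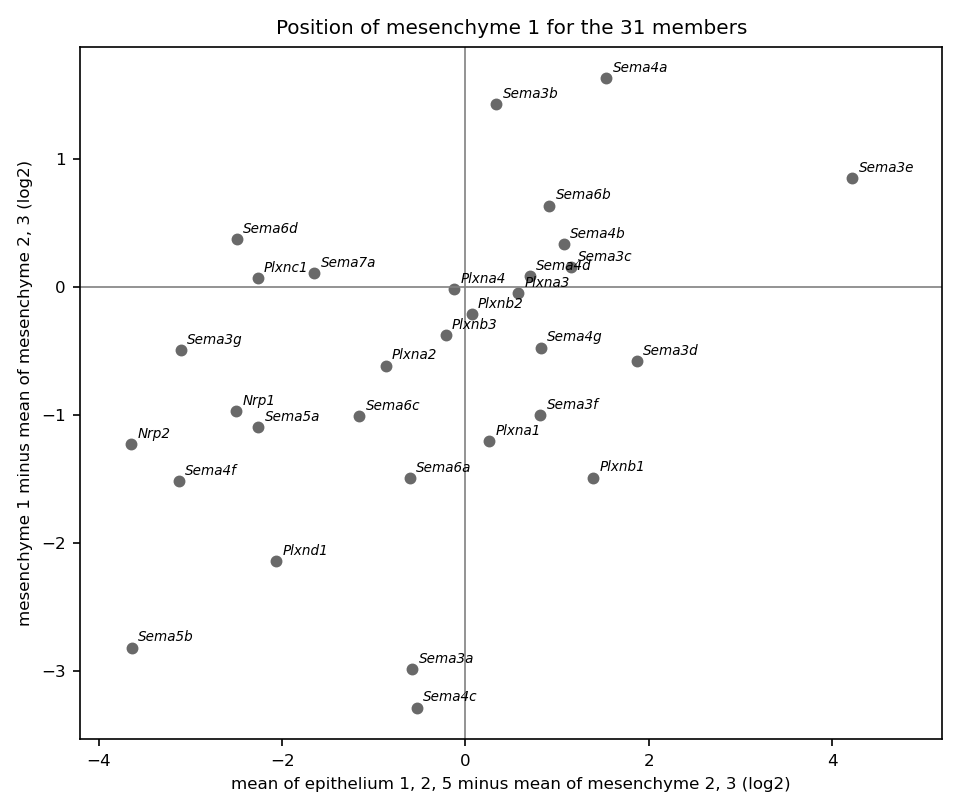
Position of mesenchyme 1 relative to the mean of mesenchyme 2 and 3 (vertical axis, log2) against that of the epithelial mean (horizontal axis, log2) for each of the 31 members. Sema4c, Sema3a, Sema5b and Plxnd1 lie at the bottom, from -3.29 to -2.14, while Plxnc1, Sema7a and Sema3c lie near zero on the vertical axis.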

How the data were processed

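Affymetrix Mouse Genome 430 2.0 arrays were hybridised with RNA of 3 epithelial and 3 mesenchymal samples. The deposited values are 1 probe set intensity per array on a linear scale, made with GCOS per the submitters' processing notes, with version and settings not given in the sources used here. In the deposited table each array's mean without its top and bottom 2% was 1500, and medians ran from 126 to 254. Detection calls are not used here, which leaves dim probe sets without a background limit. The number of arrays limits the precision.

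Intensities plus 16 were put on the log2 scale and quantile normalized, after 64 control probe sets of 45101 were left out. Of the rest, 34945 name 1 gene, 932 several and 9160 none by the platform annotation, and all 31 members matched the RefSeq table by gene identifier with 0 changed symbols. Probe sets above the 40th percentile of the mean were kept, with the brightest per gene. All 13717 genes (13587 without mesenchyme 1) were fitted in limma 3.58.1 (R 4.3.3; lmFit, eBayes with trend, no covariate), and the code was tested on simulated data. Differences of dim genes are understated by the offset of 16.

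The members, pairs, partners and marker lists were chosen with earlier results of these data known. All members may be named, with values on every array for those past the threshold in either fit. Of the partners, up to 4 past the threshold in each direction were to be named, with Met and Erbb2, and Dpysl3 and Chl1 were added after their values were seen. Alternatives were other offsets, normalizations, filters, probe set rules and variance models, a block for the replicate number, and the removal of single arrays.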

Additional observations from a re-analysis of the deposited data

How the results depend on the processing

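Counts of members past the threshold with 6 arrays (3 higher in epithelium, 7 in mesenchyme) ran from 1 to 4 and from 0 to 10 when 1 array was left out, those of all genes (820) from 142 to 1975, and those of partners (5) from 2 to 11. Without epithelium 1 and without mesenchyme 2, limma called no member higher in mesenchyme. In these fits 13 and 12 members had an unadjusted p under 0.05 in either direction, which includes those called higher in epithelium. Of all tested genes, 1874 of 13755 and 2065 of 13703 did. Median centring left 4 mesenchymal members, and the mean of probe sets left 3 partners. Titles share the numbers 1 and 2 between layers. The deviations of same-numbered arrays from their layer means correlated at -0.045 and -0.021, which gives no hint of pairing but does not exclude it, since mesenchyme 1 stands apart. The replicate number as a block leaves 1 residual degree of freedom. Epithelium 5 and mesenchyme 3 stand alone in their blocks, so the block difference rests on arrays 1 and 2 of each layer, mesenchyme 1 among them. With this block limma called 0 members in either direction, 0 partners and 0 of all genes, with 13, 6 and 1460 at an unadjusted p under 0.05.

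Among differences that were not past the threshold, some changed sign. Leaving out 1 array gave ranges of -0.26 to 0.16 for Plxnb3, -0.58 to 0.99 for Sema3a, -0.91 to 0.34 for Sema3b, -0.54 to 1.20 for Sema4c and -0.63 to 0.20 for Sema6a. With the block Plxnb3 was at 0.33 and Sema6a at 0.34, and Sema6a was at 0.66 with the mean of its probe sets. The 10 called members kept their direction under all alternatives in which they were tested. Sema3g was not tested without mesenchyme 2 or 3 or with the filter at the 60th percentile, and Sema7a was not tested with that filter. The cause of these changes was not tested.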
